A study of Homo sapiens with 58 samples.

Results

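The 10 genes described here encode the core of the machinery that carries proteins through the nuclear pore: the Ran cycle genes RAN, RANBP1 and NUTF2, the import receptors KPNB1, TNPO1, TNPO2 and IPO7, the import adaptors KPNA1 and KPNA2, and the export receptor XPO1. Their RNAs were read through HuR (ELAVL1) CLIP-seq, in which HuR is crosslinked to RNA by ultraviolet light and immunoprecipitated, and the RNA fragments that remain attached are sequenced as tags. All peaks that the deposited table assigns to one of these 10 gene names were taken, which gave 352 of 387214 peaks and 38 of 30217 sums over the peaks of 1 gene in 1 annotation class (3'UTR, intron and so on). The genes were chosen by name, from results on the peak coverage values of these same libraries; no threshold was set, and which of those values counted is not recorded. Counts over the 10 genes, and their differences and p-values, are therefore a description of where these genes stand among all features fitted and not independent evidence.

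Nuclear transport runs on a gradient of the small GTPase Ran. Import receptors of the importin beta family (KPNB1, which carries cargo through the importin alpha adaptors KPNA1 and KPNA2, and TNPO1, TNPO2 and IPO7, which bind cargo directly) release cargo when they meet RanGTP in the nucleus, while the exportin XPO1 binds its cargo together with RanGTP and releases it in the cytoplasm, where RANBP1 helps to take Ran off the receptor; NUTF2 brings RanGDP back into the nucleus. HuR is a mostly nuclear protein that binds U-rich and AU-rich stretches in introns and 3'UTRs, shuttles to the cytoplasm, enters stress granules under arsenite, and is itself among the reported cargoes of the transportins TNPO1 and TNPO2.

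The cells were Huh-7.5, an established hepatocellular carcinoma line. Nuclear and cytoplasmic fractions came from wild type cells without an APEX reaction, mock treated or exposed for 45 min to sodium arsenite at 0.5 mM, with 3 libraries in each of the 4 groups. The other libraries came from Huh-7.5 cells that express the peroxidase APEX fused to a nuclear localisation signal (APEX-NLS), to a nuclear export signal (APEX-NES) or to G3BP1, a protein of stress granules (APEX-G3BP1), all after the biotin labelling reaction, mock or with the same arsenite treatment: 17 input libraries from total RNA and 29 libraries that went through a streptavidin capture. The promoter of the transgenes and whether a line is a single clone are not given in the sources used here. Nothing in the labels says that libraries of a group came from separate cultures, so p-values measure the spread between these libraries, which may be technical. A level here is tags per 1000000 tags of the library (CPM), and it combines how much of a transcript is in the fraction with how much HuR is crosslinked to it; RNA abundance was not measured in these files, so the 2 cannot be told apart, nor can fewer cells be told apart from less RNA per cell.

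Tags in peaks numbered 235471 to 673322 in the fraction libraries, where 1 tag was worth 0.568 to 1.46 CPM. They numbered 1353 to 484305 in input and 519 to 86419 in streptavidin libraries, so that 3 tags, the upper limit that a count of 0 allows, stood for 1.71 to 4.37 CPM in a fraction library but for a median of 25.6 CPM in a streptavidin library. These limits cover counting error only. Of 8 hepatocyte markers 6 had a peak (APOA1 and TTR had none), with 654 to 2520 CPM summed in each fraction library. The 1 of 5 fibroblast markers with a peak reached at most 1.60 CPM in a fraction, 0.902 CPM in an input and 4.93 CPM in a streptavidin library, and the 2 of 4 leukocyte markers with one together at most 21.1, 117 and 14.9 CPM. The 117 CPM rests on few tags, since 1 tag was worth up to 58.6 CPM in an input library. The nuclear RNA NEAT1 averaged 413 CPM in the nuclear and 125 CPM in the cytoplasmic mock libraries, while MALAT1, also a nuclear RNA, averaged 2561 and 2394 CPM and hardly differed between them.

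Pooled over the 10 genes, most HuR tags lay in 3'UTRs, but this did not hold for each gene. Of the 352 peaks, 232 were intronic and 82 in a 3'UTR, yet the 3'UTR peaks held 79.2% of the 18311 tags that the fraction libraries placed on these genes and the introns 15.5%. KPNB1 alone held 6465 tags (35.3%), RANBP1 3287 (17.95%), NUTF2 3092 (16.9%) and XPO1 2124 (11.6%); these were followed by TNPO1 with 1208, KPNA1 with 864, RAN with 549, IPO7 with 365, TNPO2 with 274 and KPNA2 with 83 tags. KPNB1, RANBP1 and NUTF2 together held 70.1% of the tags and so set the pooled share. XPO1, with 1069 intron and 572 3'UTR tags, KPNA1 with 757 and 92, IPO7 with 166 and 148 and KPNA2 with 31 and 16 had more tags in introns than in the 3'UTR, and TNPO2 had 112 and 114. The layout of peaks also differed between genes. KPNB1, NUTF2 and RANBP1 each had few 3'UTR peaks, of which 1 took most tags, while XPO1, TNPO1 and KPNA1 had 97, 79 and 69 peaks spread over long introns and 3'UTRs.

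The main KPNB1 peak, at chr17:47683189-47683209 on the plus strand (coordinates as the table gives them, whose notes name the build GRCh38.p14), held 98.4% of the 3'UTR tags of KPNB1. It lies 2306 nt before the end of the gene in RefSeq and ranked 9th of all peaks by its mean over the fraction libraries. The main NUTF2 peak, at chr16:67871181-67871201 (plus strand, 3'UTR), likewise held 98.4% of that gene's 3'UTR tags and ranked 29th. RANBP1 had 2 strong and neighbouring 3'UTR peaks, chr22:20127211-20127231 with 77.9% and chr22:20127144-20127164 with 21.4% of its tags, ranked 38th and 186th. RAN had 8 peaks, all in its 3'UTR, with 55.4% of the tags in the one at chr12:130876941-130876961. By the mean over the 12 fraction libraries the strongest XPO1 peak lies in the 5'UTR at chr2:61537660-61537680 on the minus strand, 942 nt from the RefSeq gene start, and held 76.0% of the 5'UTR tags of XPO1; over all libraries a 3'UTR peak at chr2:61478600-61478620 had more tags, 444 against 374. The strongest TNPO2 peak, chr19:12699411-12699431 (minus strand, 3'UTR), held 91.2% of that gene's 3'UTR tags. In IPO7 the peak at chr11:9446820-9446840 (plus strand, 3'UTR) held 29.1%, and in TNPO1 the one at chr5:72911335-72911355 (plus strand, 3'UTR) 18.4%. KPNA2 had no strong peak: its highest, chr17:68040917-68040937 in an intron, had 10 tags. KPNB1 also had peaks of the table's class Other, which together held 5.05 to 19.998 CPM in the fraction libraries and were called in none of the fraction comparisons. Every peak of the table was 20 nt long by its coordinates. The annotation is that of the table, in which 3'UTR peaks of XPO1 span 48191 nt and its 5'UTR peaks 37749 nt. The class is the first of several for some main peaks: those of KPNB1 and NUTF2 are also listed as intron, and the 5'UTR peak of XPO1 as intron and retained intron. Pseudogene copies had little of their own: RANBP1P1, NUTF2P2, NUTF2P3 and IPO7P2 together had 5 peaks, with 4 to 18 tags per gene name in the fraction libraries; how tags that match both a gene and its copy were assigned is not given in the sources used here.

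In mock treated cells the 10 genes together took 717 ± 53.1 CPM in the nuclear fraction and 2257 ± 339 CPM in the cytoplasmic fraction (mean ± SD, n = 3 each). With arsenite they took 1146 ± 42.2 CPM in the nuclear and 1222 ± 86.6 CPM in the cytoplasmic fraction. The fraction and cell type markers moved too. NEAT1 averaged 539 CPM in nuclear and 232 CPM in cytoplasmic arsenite libraries, against 413 and 125 CPM in mock. Of the 6 hepatocyte markers with a peak all but TF had a lower mean with arsenite in the cytoplasm, among them AFP with 553 against 1257 CPM and ALB with 149 against 483 CPM, and all but APOB had a lower one in the nucleus. The part of these shifts in the results below was not tested. The share of their tags in 3'UTRs was 53.7 ± 3.29% in nuclear mock, 91.5 ± 1.03% in cytoplasmic mock, 73.3 ± 3.00% in nuclear arsenite and 78.2 ± 1.35% in cytoplasmic arsenite libraries. Over all peaks the same 4 groups had 11.7%, 42.3%, 19.2% and 24.5% of tags in 3'UTRs, so a shift of this direction was present across the whole table.

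**Figure D1:**
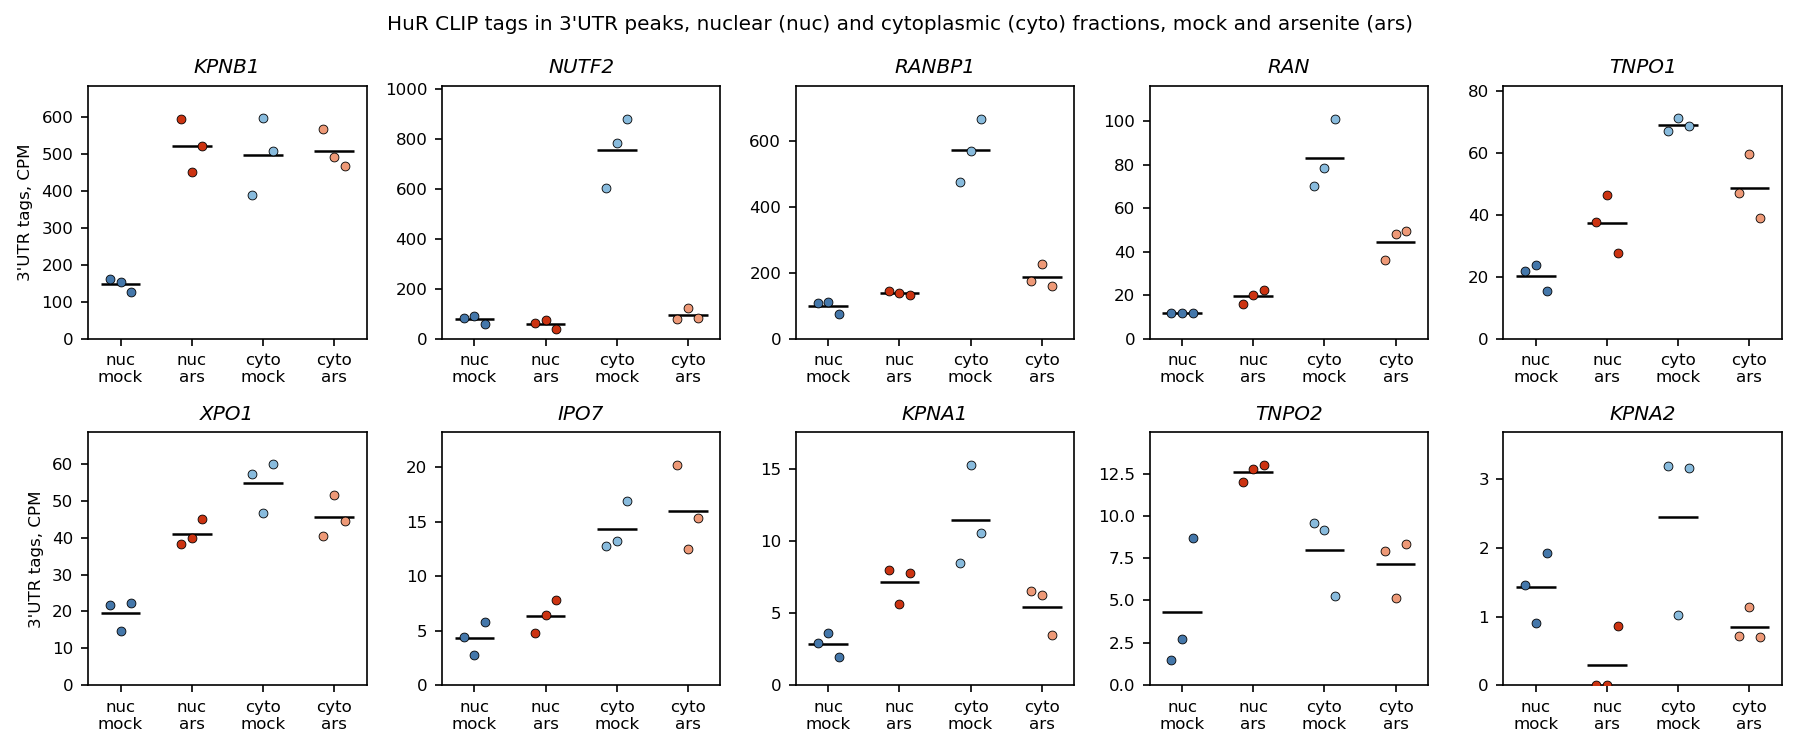
HuR tags in the 3'UTR of each of the 10 transport genes, in CPM, by fraction and treatment; each point is 1 library and each line the mean of its group (n = 3), with an axis from 0 for each gene. NUTF2 is high in the cytoplasmic mock libraries (603 to 878 CPM) and low in the other groups, while KPNB1 is low in the nuclear mock libraries (126 to 162 CPM) and high in the other groups.

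The first comparison set the nuclear against the cytoplasmic fraction in mock treated cells. The 3'UTR tags of all 3 Ran cycle genes, of KPNB1, TNPO1, IPO7 and KPNA1, and of XPO1 were higher in the cytoplasmic fraction, by 2.80-fold for XPO1 to 9.79-fold for NUTF2, with no overlap between the groups. Of the 10 transport gene 3'UTR sums 8 were called lower in the nucleus, at an adjusted p under 0.05 by limma over all sums; 49.4% of all 3'UTR sums tested were called in that direction, and 29.0% of all sums were called in either direction. The median log2 difference, nuclear minus cytoplasmic, was -1.54 over the 10 transport gene 3'UTRs and -0.98 over all 3'UTR sums. No called 3'UTR sum was lost in any of the alternative fits or with any library left out.

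Among the Ran cycle genes NUTF2, the carrier of RanGDP, had 81.6, 90.9 and 58.9 CPM in the 3 nuclear mock libraries and 603, 783 and 878 CPM in the 3 cytoplasmic ones. RANBP1, the Ran binding cofactor, had 108, 111 and 75.3 CPM in the nucleus and 477, 569 and 667 CPM in the cytoplasm. RAN itself had 11.7, 11.8 and 11.6 CPM against 70.2, 78.4 and 101 CPM. In each of these 3 genes every cytoplasmic library stood far above every nuclear one. The log2 differences, nuclear minus cytoplasmic, were -3.26 ± 0.18 (SE) for NUTF2, -2.52 ± 0.17 for RANBP1 and -2.60 ± 0.21 for RAN, with limma adjusted p of 4.6e-08, 2.02e-07 and 7.65e-07. These are folds of 9.79, 5.83 and 7.13 between the group means.

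Of the import receptors KPNB1, TNPO1 and IPO7 were called higher in the cytoplasm and TNPO2 was not called. KPNB1, the importin beta that most classical cargo uses, had 162, 153 and 126 CPM in the nuclear and 388, 597 and 506 CPM in the cytoplasmic mock libraries, or -1.73 ± 0.16 on the log2 scale (SE; adjusted p 3.4e-06 by limma). TNPO1, a transportin that imports hnRNP proteins, had 21.9, 23.6 and 15.4 against 67.0, 71.3 and 68.5 CPM, a difference of -1.67 ± 0.20 (adjusted p 3.44e-05). In both genes the groups lay well apart. IPO7, which imports ribosomal proteins among other cargo, had 4.37, 2.73 and 5.79 against 12.8, 13.2 and 16.9 CPM (-1.35 ± 0.31, limma adjusted p 0.00467), and the adaptor KPNA1 had 2.91, 3.64 and 1.93 against 8.51, 15.3 and 10.5 CPM (-1.41 ± 0.33, adjusted p 0.00616). TNPO2, the close relative of TNPO1, had 1.46, 2.73 and 8.69 CPM in the nuclear and 9.57, 9.17 and 5.27 CPM in the cytoplasmic libraries; these groups overlapped and the sum was not called (-0.77 ± 0.42, adjusted p 0.188). KPNA2 was at or below 3.19 CPM in every fraction library, near the limit of detection, and was not called (adjusted p 0.541). The export receptor XPO1 had 21.9, 14.5 and 22.2 CPM in the nuclear and 57.4, 46.9 and 60.1 CPM in the cytoplasmic libraries, again without overlap (-1.40 ± 0.22, adjusted p 0.000316).

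Intronic tags ran the other way. Of 8 intron sums 5 were called higher in the nuclear fraction (XPO1, KPNA1, TNPO2, KPNB1 and IPO7) and none lower, where 25.1% of all intron sums tested were called higher; the median difference was 0.81 over the transport genes and 0.48 over all introns. TNPO2 introns had 16.0, 18.2 and 22.2 CPM in the nuclear and 2.13, 6.11 and 2.11 CPM in the cytoplasmic mock libraries, a log2 difference of 1.94 ± 0.33 (limma adjusted p 0.00062). XPO1 introns had 119, 105 and 98.5 against 56.4, 45.8 and 65.4 CPM (0.93 ± 0.18, adjusted p 0.00138), and KPNA1 introns 58.3, 69.1 and 58.9 against 33.0, 29.5 and 39.0 CPM (0.84 ± 0.19, adjusted p 0.00433). In all 3 genes the nuclear libraries were the higher ones without overlap. The intron sums of KPNB1 (0.82 ± 0.27, adjusted p 0.0323) and IPO7 (0.79 ± 0.28, adjusted p 0.0483) lost the call under TMM scaling in edgeR, at adjusted p of 0.192 and 0.263, and with most single libraries left out. The introns of NUTF2 (0.56 ± 0.42, adjusted p 0.349) and KPNA2 (0.67 ± 0.42, adjusted p 0.263) held at most 6.76 and 5.46 CPM in a fraction library, overlapped between the fractions and were not called. TNPO1 introns, with 38.2 to 43.5 CPM in the nuclear and 27.5 to 33.0 CPM in the cytoplasmic libraries, were not called (0.39 ± 0.19, adjusted p 0.152).

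**Figure D2:**
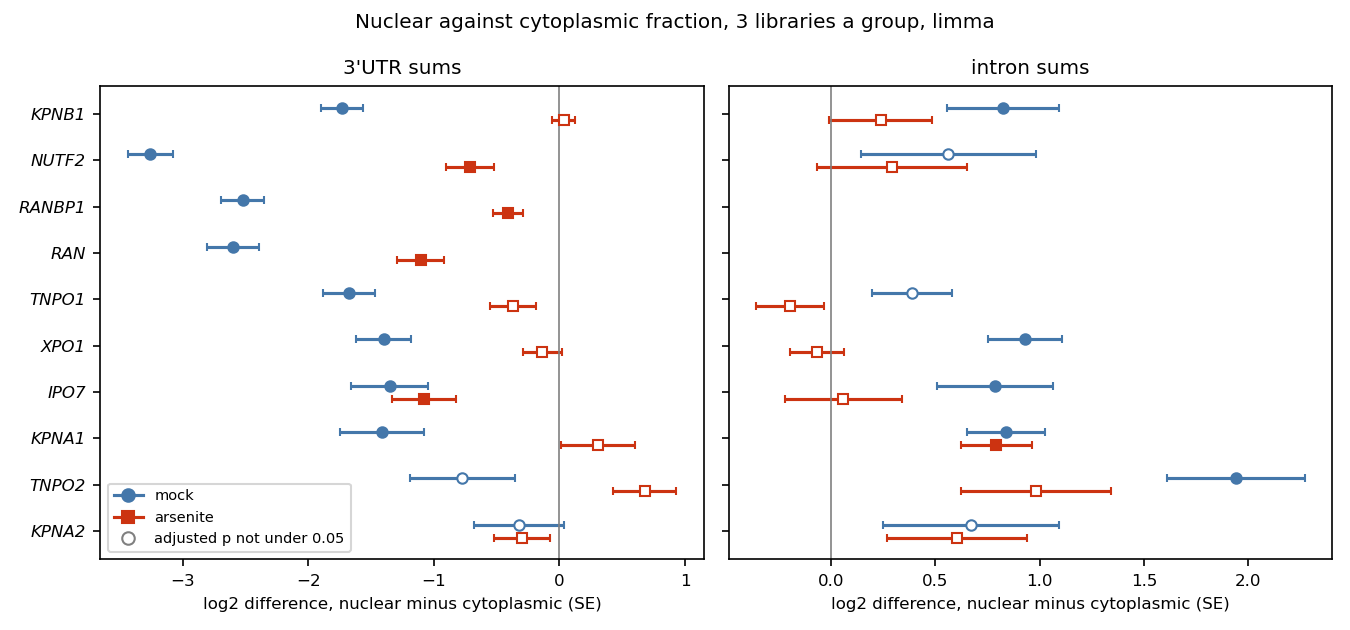
Log2 difference between the nuclear and the cytoplasmic fraction (nuclear minus cytoplasmic, with its SE from limma, n = 3 libraries a group) for the 3'UTR and intron sums of the transport genes, in mock and in arsenite treated cells; filled markers have an adjusted p under 0.05. The 3'UTR differences of NUTF2 (-3.26 in mock, -0.71 with arsenite), RANBP1 (-2.52 and -0.41) and KPNB1 (-1.73 and 0.03) lie much closer to 0 with arsenite than in mock.

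The same split was visible between peaks of a gene. Among peaks with at least 20 tags in the fraction libraries, 9 of 10 TNPO1 3'UTR peaks and 5 of 7 XPO1 3'UTR peaks had a higher mean in the cytoplasmic than in the nuclear mock libraries, while 12 of 15 XPO1 intron peaks had a higher mean in the nuclear ones. By the test on single peaks, 13 of 214 transport gene peaks tested were called between the mock fractions, 3 higher and 10 lower in the nucleus; 2.82% of all peaks tested were called, 0.530% higher and 2.29% lower. The 3 nuclear ones were intronic. The TNPO2 peak at chr19:12703607-12703627 had 11.7, 10.9 and 10.6 CPM in the nuclear and 0, 1.02 and 0 CPM in the cytoplasmic libraries. The XPO1 peak at chr2:61525374-61525394 had 11.7, 18.2 and 11.6 against 0, 2.04 and 2.11 CPM, and the KPNA1 peak at chr3:122442168-122442188 had 10.2, 7.27 and 9.66 against 0, 1.02 and 3.16 CPM. Each of the 3 had 3 tags or fewer in every cytoplasmic mock library and at least 1 such library at 0. They and 2 of the 10 cytoplasmic peaks were thus tested only with the help of the group where they are high, so their levels are a description and no p is given. Among the other 8 was the strongest TNPO1 peak, chr5:72911335-72911355 in the 3'UTR, with 1.46, 3.64 and 1.93 CPM in the nuclear and 12.8, 13.2 and 15.8 CPM in the cytoplasmic libraries (-1.83 ± 0.30 SE, limma adjusted p 0.0117). Leaving out libraries changed the count of called peaks from 13 to 19, 5 or 6 without nuclear mock library 1, 2 or 3, and to 5, 0 or 2 without cytoplasmic mock library 1, 2 or 3.

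In the cytoplasmic fraction the 3'UTR tags of the Ran cycle genes fell with arsenite. NUTF2 fell from 603, 783 and 878 CPM in the cytoplasmic mock libraries to 79.4, 123 and 81.4 CPM with arsenite, a drop of 7.99-fold. RANBP1 fell from 477, 569 and 667 to 175, 226 and 159 CPM (3.07-fold), and RAN from 70.2, 78.4 and 101 to 36.1, 48.3 and 49.4 CPM (1.87-fold). No arsenite library of these genes reached the lowest mock library. The log2 differences, arsenite minus mock, were -2.98 ± 0.18 (SE) for NUTF2, -1.61 ± 0.17 for RANBP1 and -0.86 ± 0.19 for RAN, with limma adjusted p of 8.05e-08, 1.14e-05 and 0.00711. These were 3 of the 10 3'UTR sums tested, and 18.6% of all 3'UTR sums were called lower, with 13.3% of all sums called in either direction. The RAN call was lost when any 1 of 5 of the 6 libraries was left out, all but cytoplasmic mock library 1 (adjusted p up to 0.101), and those of NUTF2 and RANBP1 were kept throughout.

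No receptor or adaptor 3'UTR was called in this comparison; a difference between them and the Ran cycle genes was not tested. KPNB1 had 388, 597 and 506 CPM in mock and 566, 489 and 467 CPM in arsenite libraries, groups that overlapped, with a log2 difference of 0.05 ± 0.16 (adjusted p 0.893 by limma). XPO1 3'UTR tags were at 57.4, 46.9 and 60.1 and then 40.4, 51.7 and 44.5 CPM (-0.25, adjusted p 0.402). TNPO1 had 67.0, 71.3 and 68.5 CPM in mock and 46.9, 59.7 and 39.0 CPM in arsenite libraries, lower without overlap but not called (-0.51 ± 0.18, adjusted p 0.0807), and KPNA1 3'UTR tags, 2.12-fold lower and also without overlap, were likewise not called (-0.83 ± 0.30, adjusted p 0.0805). XPO1 rose in the 5'UTR, as given below with the other classes of that gene. The coding sequence of KPNB1 had 0, 1.02 and 1.05 CPM in mock and 4.33, 9.66 and 3.48 CPM in arsenite libraries; it was tested only through the arsenite group, so its call is not used. No transport gene intron was called in this comparison, where 13.5% of all intron sums were called higher.

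In the nuclear fraction the 3'UTR tags of KPNB1 rose with arsenite. They were at 162, 153 and 126 CPM in the nuclear mock libraries and at 593, 450.3 and 519.8 CPM with arsenite, 3.55-fold more, with every arsenite library above every mock library (log2 difference 1.81 ± 0.11 SE, limma adjusted p 3.62e-07). The nuclear arsenite levels overlapped those of both cytoplasmic groups. XPO1 3'UTR tags rose from 21.9, 14.5 and 22.2 to 38.4, 40.0 and 45.0 CPM (1.01 ± 0.20, adjusted p 0.00573), and TNPO1 from 21.9, 23.6 and 15.4 to 37.6, 46.4 and 27.7 CPM (0.80 ± 0.22, adjusted p 0.0457). TNPO2 rose from 1.46, 2.73 and 8.69 to 12.01, 12.8 and 13.0 CPM (1.33 ± 0.37, adjusted p 0.0437), and RANBP1 from 108, 111 and 75.3 to 144, 138 and 133 CPM (0.51 ± 0.14, adjusted p 0.0438). In each of these 4 genes the groups did not overlap. Of the 10 3'UTR sums 5 were thus called higher, where 13.8% of all 3'UTR sums were, and 6.13% of all sums were called in either direction; the median difference was 0.71 over the 10 and 0.39 over all 3'UTRs.

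RAN, at 11.7, 11.8 and 11.6 and then 16.0, 19.998 and 22.5 CPM, and KPNA1, at 2.91, 3.64 and 1.93 and then 8.01, 5.599 and 7.80 CPM, were higher without overlap in the nucleus but were not called (adjusted p 0.117 and 0.135 by limma). NUTF2 had 62.5, 73.6 and 37.3 CPM with arsenite, overlapping its mock values (-0.43 ± 0.22, adjusted p 0.276). XPO1 introns fell, from 119, 105 and 98.5 to 68.9, 68.0 and 79.7 CPM (-0.56 ± 0.13, adjusted p 0.0151), where 2.65% of all intron sums were called lower. The calls in the nuclear fraction depended on single libraries. Of 7 called sums, 3, 4 or 5 passed without nuclear mock library 1, 2 or 3, and 1, 2 or 0 without nuclear arsenite library 1, 2 or 3. KPNB1 missed the threshold only without nuclear arsenite library 3 (adjusted p 0.0538), with its log2 difference still at 1.81.

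**Figure D3:**
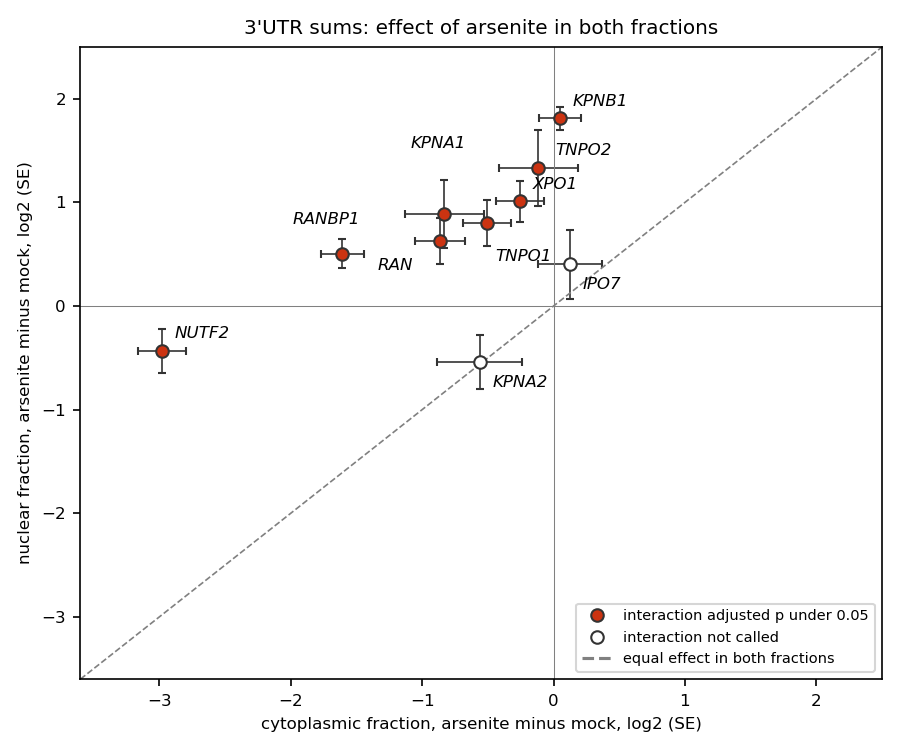
Log2 difference between arsenite and mock (arsenite minus mock, with SE from limma) of the 3'UTR sums in the cytoplasmic fraction on the x axis and in the nuclear fraction on the y axis; red points have an interaction adjusted p under 0.05 and the dashed line marks equal change in both. NUTF2 lies far left (-2.98 in the cytoplasm, -0.43 in the nucleus) and KPNB1 at the top (0.05 and 1.81), and the 8 red points all lie above the line.

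Whether arsenite acted differently in the fractions was tested directly, as the change in the nucleus minus the change in the cytoplasm over all 12 fraction libraries. Of the 10 3'UTR sums 8 were called, all with the nucleus gaining relative to the cytoplasm, where 24.2% of all 3'UTR sums were called in that direction and 11.0% of all sums in either. The log2 interactions were 2.55 ± 0.24 (SE) for NUTF2, 2.11 ± 0.19 for RANBP1 and 1.76 ± 0.16 for KPNB1, with limma adjusted p of 1.27e-13, 4.39e-14 and 6.77e-14. They came about in different ways: NUTF2 by a fall in the cytoplasm, KPNB1 by a rise in the nucleus, and RANBP1 by both. KPNA1 (1.72 ± 0.46, adjusted p 0.00667), RAN (1.49 ± 0.31, adjusted p 0.0002), TNPO1 (1.31 ± 0.29, adjusted p 0.000826) and XPO1 (1.27 ± 0.29, adjusted p 0.00103) were also called. TNPO2 (1.45 ± 0.47, adjusted p 0.029) lost its call in some alternatives, while the other 7 kept theirs in all of them. IPO7 (0.27, adjusted p 0.769) and KPNA2 (0.02, adjusted p 0.984) were not called. XPO1 introns had an interaction of the opposite sign (-0.997 ± 0.23, adjusted p 0.00141), where 9.37% of all intron sums were called lower. Each interaction uses the mock fractions compared above, so these values are not independent of the earlier ones.

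By single peaks, 6 of 331 transport gene peaks had a called interaction, all positive, where 0.352% of all peaks were called in either direction and 0.318% with that sign. They were the main peaks of KPNB1 (1.76 ± 0.07 SE), NUTF2 (2.57 ± 0.16) and RAN (2.05 ± 0.48), both strong peaks of RANBP1 (2.29 ± 0.13 and 1.36 ± 0.32) and the TNPO1 3'UTR peak at chr5:72909142-72909162 (2.42 ± 0.55), by limma. The 2 RANBP1 peaks differed in their nuclear change: the downstream one had 74.3, 77.3 and 54.1 CPM in nuclear mock and 116, 122 and 109 CPM in nuclear arsenite libraries, without overlap, while the upstream one had 33.5, 33.6 and 20.3 and then 25.6, 16.8 and 20.8 CPM, with overlap. In the cytoplasm both fell, the downstream peak from 374, 418 and 516 to 136, 185 and 126 CPM and the upstream one from 101, 143 and 149.7 to 36.8, 39.2 and 32.7 CPM. A difference between the 2 peaks was not tested. Between arsenite and mock, 4 of 223 transport gene peaks were called in the cytoplasm, where 0.760% of all peaks were, and 2 of 230 in the nucleus, where 0.186% were. The first count became 3, 0 or 1 without cytoplasmic mock library 1, 2 or 3 and 11, 16 or 13 without cytoplasmic arsenite library 1, 2 or 3; the second became 0, 1 or 2 without nuclear mock library 1, 2 or 3 and 0, 0 or 7 without nuclear arsenite library 1, 2 or 3. The 6 called interactions became 3 to 6 with 1 library left out, and the main peaks of KPNB1, NUTF2 and RANBP1 were among them each time.

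After arsenite the 3'UTR levels of the fractions overlapped in 5 of the 10 genes. KPNB1 had 593, 450.3 and 519.8 CPM in nuclear and 566, 489 and 467 CPM in cytoplasmic arsenite libraries (0.03 ± 0.09 SE, limma adjusted p 0.888), and XPO1 3'UTR tags had 38.4, 40.0 and 45.0 against 40.4, 51.7 and 44.5 CPM (-0.14 ± 0.16, adjusted p 0.727). In both genes the groups overlapped. RAN stayed higher in the cytoplasm, at 16.0, 19.998 and 22.5 against 36.1, 48.3 and 49.4 CPM (-1.10 ± 0.19, adjusted p 0.000422), as did IPO7, at 4.80, 6.40 and 7.80 against 20.2, 12.5 and 15.3 CPM (-1.08 ± 0.26, adjusted p 0.0112). NUTF2 (-0.71 ± 0.19, adjusted p 0.0284) and RANBP1 (-0.41 ± 0.12, adjusted p 0.0414) kept smaller cytoplasmic excesses of 1.64-fold and 1.35-fold, without overlap. TNPO2 was the 1 gene higher in the nucleus without overlap, at 12.01, 12.8 and 13.0 against 7.94, 5.12 and 8.35 CPM, but was not called (0.68 ± 0.25, limma adjusted p 0.14). The 4 cytoplasmic ones of 10 3'UTR sums were called lower in the nucleus, where 9.89% of all 3'UTR sums were and 4.99% of all sums in either direction. KPNA1 introns, at 62.5, 90.4 and 76.2 against 34.7, 56.3 and 39.6 CPM, were called higher in the nucleus (0.79 ± 0.17, adjusted p 0.005), where 1.41% of all intron sums were. The KPNA1 intron peak named above had 18.4, 24.8 and 19.9 CPM in nuclear and 3.61, 5.68 and 4.87 CPM in cytoplasmic arsenite libraries and was the 1 peak called of 252, where 0.257% of all peaks were (1.74 ± 0.27, adjusted p 0.00928). In place of 5 sums, 2, 1 or 0 were called without nuclear arsenite library 1, 2 or 3 and 1, 0 or 1 without cytoplasmic arsenite library 1, 2 or 3. RAN lost its call without nuclear arsenite library 3 or cytoplasmic arsenite library 2 (adjusted p 0.0687 and 0.110), and the other 4 lost theirs more often. The KPNA1 peak lost its call with any library left out.

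In XPO1 the annotation classes of the table moved in different directions, with the doubt that its main 5'UTR peak is also listed as intronic. The 5'UTR tags rose with arsenite in both fractions: from 10.6, 15.3 and 12.7 to 33.9, 36.4 and 46.6 CPM in the cytoplasm (3.03-fold, log2 difference 1.45 ± 0.22 SE, limma adjusted p 0.000418) and from 23.3, 17.3 and 22.2 to 44.8, 40.0 and 53.7 CPM in the nucleus (2.21-fold, 1.06 ± 0.19, adjusted p 0.00272). Neither pair of groups overlapped. Of all 5'UTR sums 2.49% were called higher in the cytoplasm and 4.76% in the nucleus. The rise lay in the peak at chr2:61537660-61537680, which had 4.25, 7.13 and 4.22 CPM in cytoplasmic mock, 31.0, 33.0 and 41.0 CPM in cytoplasmic arsenite, 8.74, 7.27 and 8.69 CPM in nuclear mock and 39.2, 29.6 and 44.2 CPM in nuclear arsenite libraries. As a peak it was called in both fractions (2.33 ± 0.27, adjusted p 0.00594, and 1.91 ± 0.24, adjusted p 0.0083), though not with every library left out. The 5'UTR interaction was not called (-0.38, adjusted p 0.526).

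The XPO1 introns, by contrast, had 108 ± 10.7 CPM in nuclear mock, 72.2 ± 6.52 in nuclear arsenite, 55.9 ± 9.78 in cytoplasmic mock and 75.5 ± 0.351 CPM in cytoplasmic arsenite libraries (mean ± SD, n = 3). With arsenite the intron levels of both fractions overlapped. In the cytoplasm the intron rise was not called (0.43 ± 0.17, adjusted p 0.114 by limma). The 3'UTR had 19.5 ± 4.33, 41.2 ± 3.46, 54.8 ± 7.01 and 45.6 ± 5.72 CPM in the same order. Its main peak, chr2:61478600-61478620, held 45.8% of the 3'UTR tags and had 8.74, 5.46 and 6.76 CPM in nuclear mock and 24.5, 18.3 and 31.6 CPM in cytoplasmic mock libraries. A weaker 3'UTR peak at chr2:61477983-61478003 had no tag in nuclear mock libraries and 5.32, 4.07 and 2.11 CPM in cytoplasmic mock libraries. With 3 tags per library as the limit for a count of 0, the nuclear limit averaged 3.33 CPM. The cytoplasmic mean of 3.83 CPM, itself from few tags, was 1.15-fold that limit, and the value of 2.11 CPM lay below it. This peak was tested only through the cytoplasmic group, so no p is given.

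**Figure D4:**
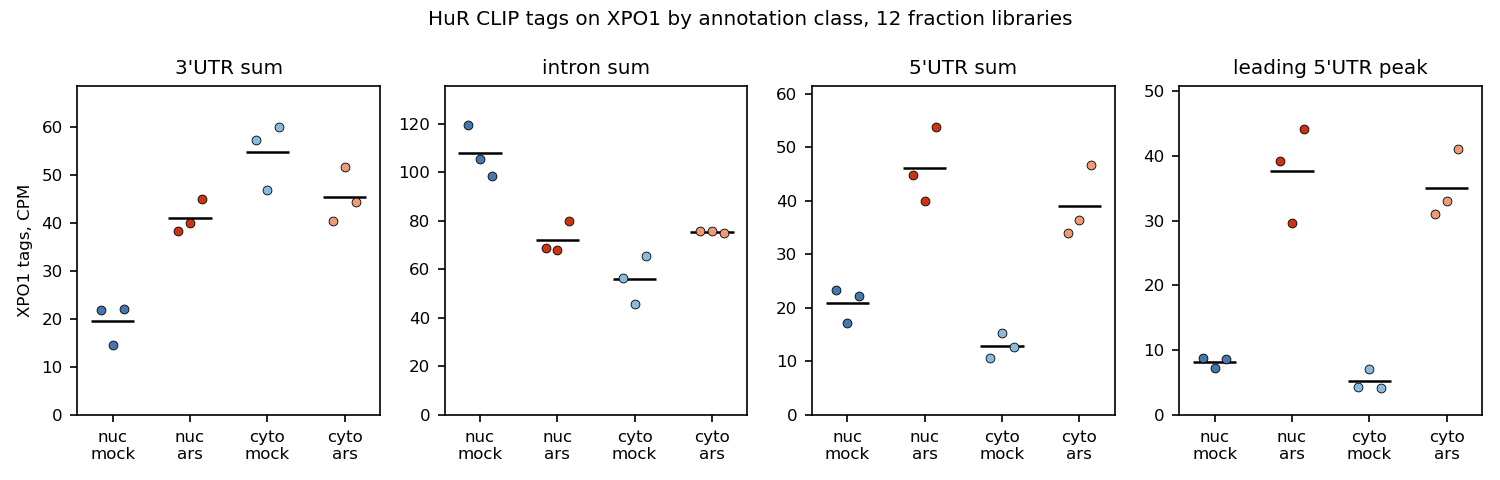
HuR tags on XPO1 in CPM by annotation class, fraction and treatment; each point is 1 library and each line the group mean (n = 3). The 5'UTR is higher with arsenite in both fractions (means of 46.2 against 20.9 CPM in the nucleus and 39.0 against 12.9 CPM in the cytoplasm), while the introns are highest in the nuclear mock libraries (mean 108 CPM).

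A wider list of 54 other transport genes (further importins and exportins, Ran regulators and nucleoporins) was counted in the same way. In mock, 15 of 40 of their 3'UTR sums were called lower in the nucleus and 0 higher, where 49.4% of all 3'UTR sums were called lower, with a median of -0.71 beside -0.98 over all 3'UTR sums. The nucleoporin NUP50 (-2.53 ± 0.33 SE), the pore membrane protein NDC1 (-2.41 ± 0.25), the importin TNPO3 (-2.17 ± 0.41) and the importin alpha KPNA4 (-1.78 ± 0.24) were among them, and 21 of 48 intron sums were called higher, where 25.1% of all intron sums were. With arsenite 6 of 42 3'UTR sums fell in the cytoplasm, including NUP50 (-1.28 ± 0.28) and KPNA6 (-1.12 ± 0.20), beside 18.6% of all 3'UTR sums. In the nucleus 4 of 41 rose, among them IPO8 (1.48) and SEH1L (1.04), beside 13.8% of all. Between the arsenite fractions 9 of 41 were called lower in the nucleus, among them XPO7 (-1.39 ± 0.36) and NUP43 (-1.16 ± 0.19), beside 9.89% of all. The interaction was called for 7 of 42 3'UTR sums, all positive, led by NUP50 (2.39 ± 0.41) and IPO5 (1.51), beside 24.2% of all 3'UTR sums, and for 9 of 49 intron sums, all negative, beside 9.37% of all intron sums. All of these are limma calls adjusted over all sums.

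KPNB1, the member with most tags, was compared with 121 genes of at least 104.5 CPM by the shape of their 3'UTR levels over the 12 fraction libraries. The likeness was the root mean square distance of log2 levels, each gene centred on its mean, with a median of 0.73 over these genes. Among the nearest were TRIM71 (0.160) and MIDN (0.248). TRIM71 averaged 89.1 CPM in nuclear mock, 301 in nuclear arsenite, 332 in cytoplasmic mock and 271 CPM in cytoplasmic arsenite libraries, where KPNB1 averaged 147, 521, 497 and 507 CPM. Both were lowest in the nuclear mock libraries.

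The APEX lines gave few tags on these genes. The 17 input libraries held 5167 tags on the 10 genes and the 29 streptavidin libraries 1403, of which the 4 APEX-NES mock libraries held 31. Values are therefore given per library, by the library sets that the labels' prefixes name JL0361 (APEX-G3BP1 alone), JL0388 and JL1024. In the JL0388 set a chi-square test set some streptavidin libraries of a group barely or not apart from sampling noise. The first and second libraries had a chi-square p of 0.065 in APEX-NLS arsenite and 0.063 in APEX-NES arsenite. The fourth and the fifth of APEX-G3BP1 arsenite had 0.0198. Their chi-square per degree of freedom was 1.30, 1.41 and 1.26 in that order. These tests rest on 33 to 142 peaks, so their p does not show that the pairs were closer than other libraries. The nuclear mock fraction libraries, tested over 5934 to 8721 peaks, had a chi-square per degree of freedom of 1.04 to 1.06 and p of 0.000103 to 0.0151. By that ratio they lay nearer to sampling noise than these JL0388 pairs. They still differed by more than sampling noise and were kept as 3 libraries. When each JL0388 pair was counted as 1 sample, no transport gene sum was called between APEX-NLS and APEX-NES with arsenite, where 2 were called with all libraries. In mock the same averaging left the count of called sums at 3.

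In the input libraries, which hold RNA of whole cells, KPNB1 3'UTR tags were at 16.7 and 13.7 CPM in APEX-NLS mock and 47.9 and 30.8 CPM in APEX-NLS arsenite libraries. In APEX-NES they were at 21.6 and 8.27 and then 34.6 and 48.9 CPM. In both lines each arsenite library stood above each mock library, but the 8.27 CPM of the second APEX-NES mock library is 1 tag. There and in the second APEX-NES arsenite library 3 tags stand for 24.8 and 24.5 CPM. In APEX-G3BP1 the 4 mock libraries had 0, 61.7, 24.8 and 44.5 CPM, of which 44.5 CPM is 1 tag. The 5 arsenite libraries had 0, 124, 94.5, 32.6 and 33.2 CPM, overlapping the mock ones. The libraries at 0 were the shallow first ones of JL0361, where 3 tags stand for 152 and 176 CPM. Over all lines and sets KPNB1 was not called (log2 difference 1.01, limma adjusted p 0.610), nor was any of the 21 transport gene sums tested, of which 3 had an unadjusted p under 0.05. Limma called 0 of all 11316 sums here and 1175 had an unadjusted p under 0.05, whereas edgeR on the recovered tags called 815 of all sums and 4 of the transport genes. RANBP1 in the APEX-G3BP1 arsenite inputs differed by library set: it had 293, 303 and 278 CPM in JL0361 but 31.4 CPM in JL0388 and 60.8 CPM in JL1024. The set therefore moved with the level of this gene, and its part in the input comparison (RANBP1 1.95 ± 0.70, limma adjusted p 0.461) was not tested beyond the set term in the fit.

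In the streptavidin libraries intronic tags were few. XPO1 introns had 54.2, 47.8, 9.46 and 6.28 CPM in the 4 APEX-NLS mock libraries and no tag in the 4 APEX-NES mock libraries. With arsenite they had 55.5, 66.9, 9.55 and 20.3 CPM against 26.1, 0, 0 and 1.77 CPM. TNPO1 introns had 9.85, 41.0, 1.89 and 12.6 CPM and TNPO2 introns 4.93, 6.83, 1.89 and 2.09 CPM in APEX-NLS mock libraries, and neither had a tag in APEX-NES mock. KPNA1 introns had 14.8, 13.7, 3.78 and 4.19 CPM in APEX-NLS and 26.4, 19.9, 0 and 0 CPM in APEX-NES mock libraries, where 26.4 and 19.9 CPM are 1 tag each. The APEX-G3BP1 mock libraries also held intron tags, with XPO1 introns at 0, 0, 67.8, 0, 5.98 and 14.8 CPM.

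Limma called the XPO1, TNPO1 and TNPO2 introns, 3 of the 9 sums tested, where 20.8% of all sums were called in either direction and 26.9% of intron sums higher in APEX-NLS. Each of the 3 was at 0 in every APEX-NES mock library and entered the test only through APEX-NLS, so these calls are not used and no difference or p is given. The APEX-NES mock libraries held 2981 to 5011 tags in peaks against 20609 to 34803 in APEX-NLS. In them 3 tags averaged 48.4 CPM, more than the mean of each of these introns in APEX-NLS. EdgeR on the recovered tags called 0 of these sums. The part of depth in the result was not tested.

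With arsenite limma called XPO1 introns and NUTF2 3'UTR tags between APEX-NLS and APEX-NES, 2 of 10 sums tested, where 14.1% of all sums were called. Each had 2 of the 4 libraries of its lower group at 0 and was tested only with the help of the higher group, so these calls are likewise not used. NUTF2 had 0, 13.4, 0 and 17.4 CPM in APEX-NLS and 52.3, 91.8, 18.6 and 15.9 CPM in APEX-NES arsenite libraries, so that the groups overlapped. In the APEX-G3BP1 arsenite libraries it had 0, 150.5, 209.8, 101, 178, 154 and 29.9 CPM, again overlapping APEX-NES, and in the mock ones 0, 198, 67.8, 214.5, 47.9 and 34.9 CPM, of which 67.8 and 214.5 CPM rest on 1 tag each. Between APEX-G3BP1 and APEX-NES with arsenite, over the 4 libraries each of JL0388 and JL1024, NUTF2 was not called (1.40 ± 0.70, limma adjusted p 0.258). None of the 9 transport gene sums was called there by limma, 1 had an unadjusted p under 0.05 and edgeR called 0, where 3.12% of all sums were called by limma. KPNB1 had 0, 61.2, 89.6, 56.4, 107, 59.8 and 89.6 CPM in APEX-G3BP1 and 157, 144, 4.14 and 17.7 CPM in APEX-NES arsenite libraries, overlapping groups (0.90, adjusted p 0.536). In APEX-NES the 2 high libraries were those of JL0388 and the 2 low ones those of JL1024.

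**Figure D5:**
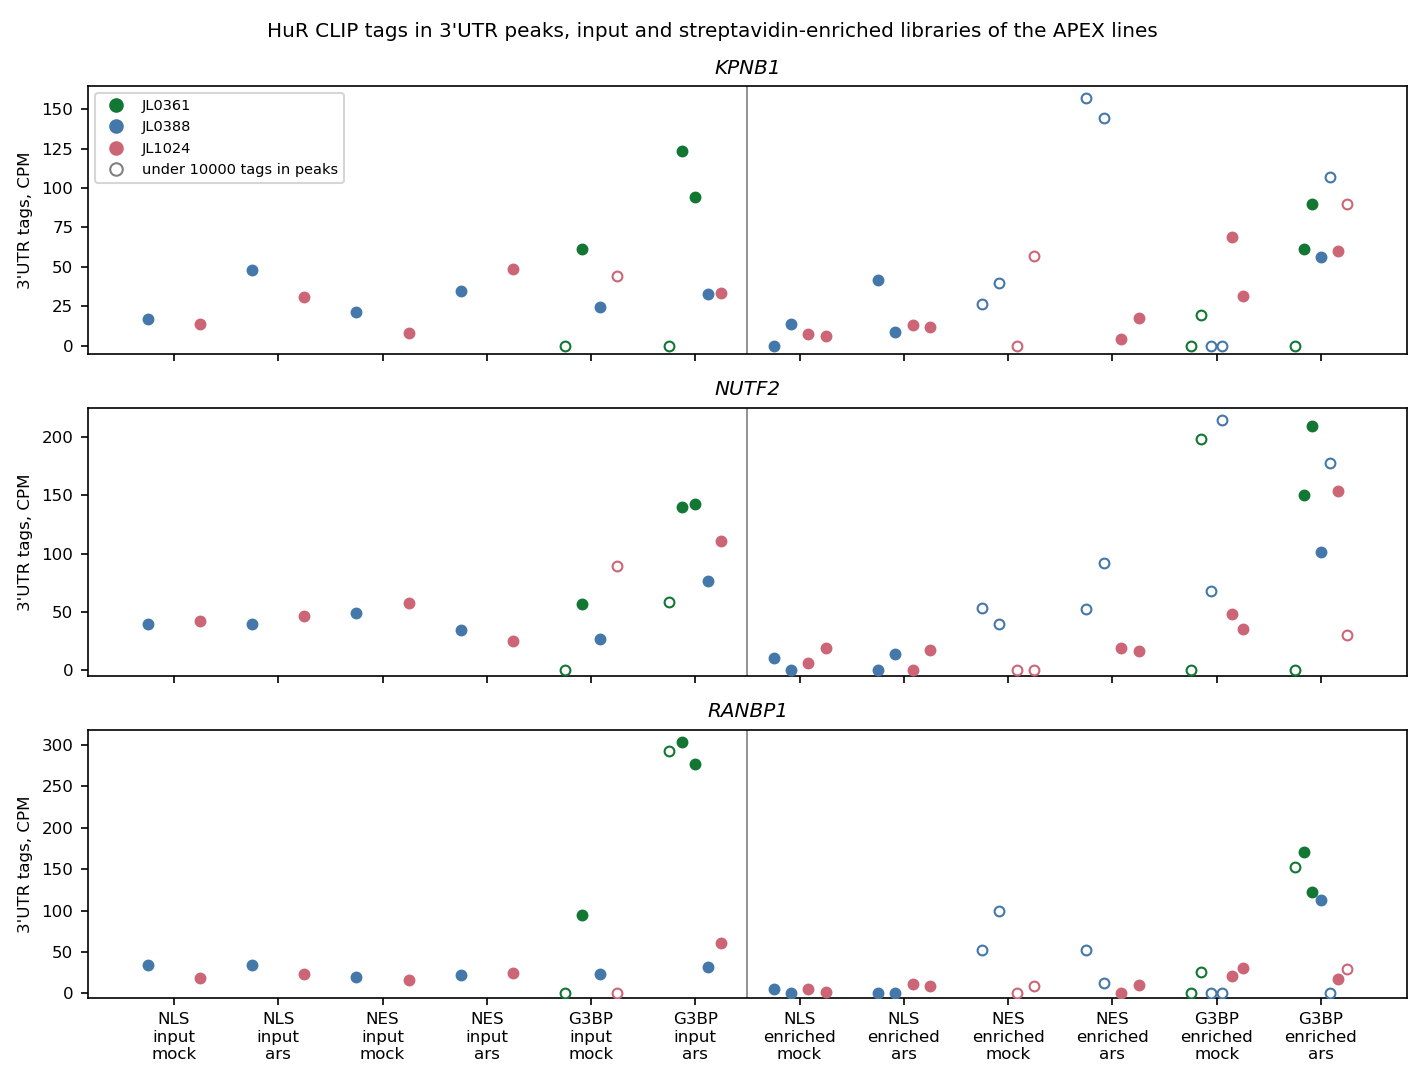
HuR tags in CPM in the 3'UTRs of KPNB1, NUTF2 and RANBP1, in the input and streptavidin libraries of the APEX-NLS, APEX-NES and APEX-G3BP1 lines, mock and arsenite. Each point is 1 library, coloured by library set, and open symbols mark libraries with under 10000 tags in peaks. All points of the APEX-NES mock streptavidin libraries are open.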

How the data were processed

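HuR CLIP-seq was read in 58 libraries. Per the submitters' processing notes, GRCh38.p14, Bowtie2, SAMtools, bedtools and HOMER were used; their roles, versions, the peak caller and the handling of duplicate tags are not given in the sources used here. The deposited peak table holds, per peak and library, a signal that the authors had divided by the library total. Its values are whole tags over that total (100% whole within 0.01 tag), so that CPM is the value times 1000000. Of 395471 lines 8257 repeats were dropped, and 84358 of the 387214 peaks carry no gene name. Sums add all peaks of a gene name in 1 class. A feature was tested when its value was above 0 in no fewer libraries than the smaller of the groups has. The tested quantity was log2(value + 2.283806e-06); the added constant equals 2.28 CPM and understates changes of low features. They used limma 3.58.1 (lmFit, eBayes with trend; R 4.3.3), two-sided, with Benjamini-Hochberg adjustment over all features at 0.05. APEX comparisons carried the library set, and the input one also the line, as terms. Alternatives were edgeR 4.0.16 quasi-likelihood tests on the recovered tags, TMM factors, other pseudocounts, no filter, scaling to tags in peaks, 1 fit over all fraction libraries, a replicate block, single sets and left-out libraries. No pairing of the fraction libraries by replicate number was seen (correlations of deviations -0.0476 to 0.0306), but counting noise in features of few tags could hide one.

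The members, gene lists and tests were chosen with earlier results of these data known. All 10 genes are named, with their 3'UTR and intron sums, other sums of at least 5 CPM on average, the strongest peak of each gene, and the called peaks of largest change; other sums and peaks named were chosen after their values were seen. The genes nearest in pattern to KPNB1 were named by their distance over the fraction libraries, and 1 of the 3 that the rule gives is not reported here. No genome was used here, so no peak sequence is shown and no motif was searched. RefSeq gene spans of GRCh38.p14 gave the distances. Python 3.11.15, pandas 2.3.3 and matplotlib 3.10.9 made tables and figures.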

Additional observations from a re-analysis of the deposited data

Results flagged for a closer look

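The change with arsenite differed between the nuclear and the cytoplasmic fraction, by the interaction test in limma, for 9 sums. On the log2 scale, nuclear change minus cytoplasmic change, the 3'UTR values were 2.55 for NUTF2, 2.11 for RANBP1, 1.76 for KPNB1, 1.72 for KPNA1, 1.49 for RAN, 1.45 for TNPO2, 1.31 for TNPO1 and 1.27 for XPO1, and the XPO1 introns had -0.997. Among single peaks it was 2.57 for the main peak of NUTF2, 2.42 for TNPO1 at chr5:72909142-72909162, 2.29 and 1.36 for the 2 RANBP1 peaks, 2.05 for RAN and 1.76 for KPNB1.

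Single libraries stood apart from the others of their group in 4 of 39 checks, made over 5 quantities in each group of 4 to 7 libraries, where chance alone would mark about 1 group in 20. All 4 were streptavidin libraries. The first APEX-G3BP1 mock library had 0 CPM on the 10 genes together, with the nearest other library at 182 CPM; it held 519 tags in peaks, and 3 tags stand for 474 CPM in it, so that its 0 cannot be told apart from 182 CPM. The first APEX-NLS arsenite library had 41.6 CPM in the KPNB1 3'UTR, from 3 tags, with the nearest at 13.4 CPM. The XPO1 introns had 26.1 CPM from 1 tag in the first APEX-NES arsenite library, with the nearest at 1.77 CPM, and 67.8 CPM from 1 tag in the third APEX-G3BP1 mock library, with the nearest at 14.8 CPM.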

How the results depend on the processing

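Of 3508 alternative values of the named sums and peaks, 3215 kept direction and side of the threshold, 245 lost the call, 47 gained one and 1 reversed: the XPO1 3'UTR between APEX-G3BP1 and APEX-NES with arsenite, 0.96 over both sets, was -0.88 within JL1024. Called transport gene peaks between the mock fractions were 13, where 2.82% of all peaks were called, and 34 with all 12 fraction libraries in 1 fit, where 10.5% were. Between the arsenite fractions there was 1 (0.257% of all peaks), and 8 without the filter (0.358%), 3 scaled to tags in peaks (0.314%), 6 by edgeR (0.655%) and 6 in 1 fit (0.462%). In the cytoplasm 4 (0.760%) became 9 with a pseudocount 4 times smaller (3.49%) and 9 in 1 fit (3.08%), and the split of all calls went from 465 higher and 1008 lower to 5162 and 1600 with that pseudocount. In the nucleus 2 (0.186%) became 1 with TMM factors (0.0474%) and 5 in 1 fit (1.18%). For sums the smaller pseudocount gave 3 in place of 5 between the arsenite fractions and 4 in place of 7 in the nucleus.

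Between APEX-NLS and APEX-NES in mock, 3 calls became 0 with the larger pseudocount, without the filter and by edgeR, 1 with TMM factors and 5 within JL0388. With arsenite 2 became 0 with the smaller pseudocount, without the filter, within JL1024 or with pairs averaged, and 1 when scaled to tags in peaks, by edgeR, with TMM factors or within JL0388. Between APEX-G3BP1 and APEX-NES 0 became 1 within JL1024. In the inputs 0 became 4 by edgeR, 2 with TMM factors, 2 within JL0388 and, chosen after seeing the data, 4 by edgeR without inputs under 10000 tags. The cause of these changes was not tested.

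With 1 library left out, called peaks ranged from 0 to 19 (mock fractions), 0 to 0 (arsenite fractions), 0 to 16 (cytoplasm), 0 to 7 (nucleus) and 3 to 6 (interaction). Called sums ranged from 11 to 13, 0 to 2, 3 to 4, 0 to 5 and 8 to 9 in the same order, 0 to 4 and 0 to 3 between APEX-NLS and APEX-NES in mock and arsenite, 0 to 1 between APEX-G3BP1 and APEX-NES, and 0 to 0 in the inputs. The replicate block gave 0 in place of 2 calls between APEX-NLS and APEX-NES with arsenite and moved no other count past 1.5 times; of 213 named values 3 lost and 3 gained a call under it. Of the input libraries only 2 mock and arsenite pairs of the same number were checked, both of APEX-G3BP1 in JL0361, and these correlated at 0.127 and 0.141.

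TMM factors moved the median of all sums between the mock fractions from 0.11 to -0.07 and the split of all calls from 2714 higher and 3441 lower to 1211 and 3801. For peaks the split went from 833 and 3604 to 124 and 1708 in that comparison, from 465 and 1008 to 1155 and 690 in the cytoplasm and from 304 and 68 to 92 and 3 in the nucleus. For APEX-NLS against APEX-NES with arsenite it went from 513 and 9 to 105 and 14, and for APEX-G3BP1 against APEX-NES from 71 and 0 to 1 and 42. The transport gene 3'UTR calls between the mock fractions were the same under all scalings. Depth limits the APEX libraries and peaks of few tags: there a missed call does not show that levels were alike.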
